A study of Rattus norvegicus with 8 samples.

Results

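Mbp (ENSRNOG00000016516), Mag (ENSRNOG00000021023) and Bcas1 (ENSRNOG00000012906) are 3 genes of myelin, taken by their Ensembl identifiers from the 32623 identifiers of a count table of rat dorsal root ganglia (DRGs). All 3 passed the filter on low counts, as did 16988 genes in all. RNA-seq was performed on the ipsilateral L4 to L6 DRGs of adult, gonadally intact Sprague Dawley rats, which were pooled within a rat to give 1 library per rat. There were 8 libraries, 2 in each of 4 groups: naïve males, males after chronic constriction injury (CCI), naïve females and females after CCI. In CCI the sciatic nerve was loosely tied with silk sutures at mid-thigh, and the DRGs were collected on day 14. Naïve rats had no operation, so effects of the nerve ligation and of the surgery itself cannot be told apart. CCI rats whose paw withdrawal threshold did not fall enough were not used in the study. The stage of estrus was not determined in the females, and the libraries were sequenced in 2 batches that the labels do not tie to rats.

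Myelin of peripheral nerve is made by Schwann cells, which wrap their membrane around large axons, and within a DRG it surrounds the myelinated fibers of the sensory neurons. Mbp encodes myelin basic protein, which lies on the cytoplasmic side of compact myelin and holds the membrane layers together. Mag encodes myelin-associated glycoprotein, an adhesion molecule of the non-compact membrane that faces the axon. Bcas1 encodes a protein known from myelinating oligodendrocytes, the myelin-forming cells of the central nervous system, and from Schwann cells. After a peripheral nerve is injured, Schwann cells of the injured nerve are known to leave the myelinating state and to lower their myelin genes.

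The promoter of Mag is printed because Mag alone passed the main test for a sex difference in the response to CCI. Mbp and Bcas1 had differences of like size in that test and did not pass. RefSeq promoter windows (250 bases before to 50 after an annotated start, build GRCr8) were available for 2 of the 3 genes, with 1 window for Mag and 2 for Mbp. That of Mag lies at chr1:95290995-95291294 on the minus strand, and capitals mark a match to the SOX core.

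Mag promoter, 5′ to 3′: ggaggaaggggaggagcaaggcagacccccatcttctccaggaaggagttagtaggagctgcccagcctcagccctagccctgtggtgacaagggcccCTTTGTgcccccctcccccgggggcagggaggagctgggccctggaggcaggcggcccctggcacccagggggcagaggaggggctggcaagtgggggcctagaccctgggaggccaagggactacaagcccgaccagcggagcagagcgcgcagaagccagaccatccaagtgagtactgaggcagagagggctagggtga

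The letters searched on both strands were ACAAAG and ACAATG, a core bound by SOX proteins such as Sox10, and GTGGGCG and GTGGGAG, a core bound by EGR proteins such as Egr2. These factors are known regulators of Schwann cell myelination. The Mag window held 1 match to the SOX core and 0 to the EGR core. Of the Mbp windows, 1 held 3 matches to the SOX core and the other held 0, and neither matched the EGR core. Among all 33465 promoter windows of this length, 29.1% held the SOX core and 15.2% the EGR core, so a match in itself is common.

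Libraries held from 39489103 to 60818457 counts. Expression is given as CPM, the counts of a gene scaled to the size of its library with edgeR's TMM factors, and a log2 fold change (log2FC) is the difference on the log2 scale. Mbp took from 0.200% to 0.983% of all counts of a library, and its counting error was at most 0.331%. Counting errors reached 2.90% for Mag and 2.10% for Bcas1. These cover counting only and were smaller than most differences between rats of a group.

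Mbp was highest in naïve males, with 9369 and 7705 CPM in the 2 rats, and lowest in CCI males, with 2160 and 2066 CPM. Naïve females had 6433 and 5113 CPM and CCI females 3299.7 and 2336 CPM. No group overlapped its neighbour in the order naïve males, naïve females, CCI females, CCI males. Bcas1 followed the same order without overlap, with naïve males at 200.3 and 168 CPM, naïve females at 135 and 109 CPM, CCI females at 81.3 and 57.9 CPM, and CCI males at 46.1 and 51.3 CPM. This order without overlap was found in 1.86% of the genes tested.

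Mag departed from that order. The naïve males had 60.4 and 47.4 CPM and the naïve females 33.7 and 29.7 CPM. The CCI females had 30.6 and 32.3 CPM and the CCI males 27.2 and 25.2 CPM. The naïve and CCI females overlapped, so that Mag was set apart by the naïve males at the top and the CCI males at the bottom.

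**Figure D1:**
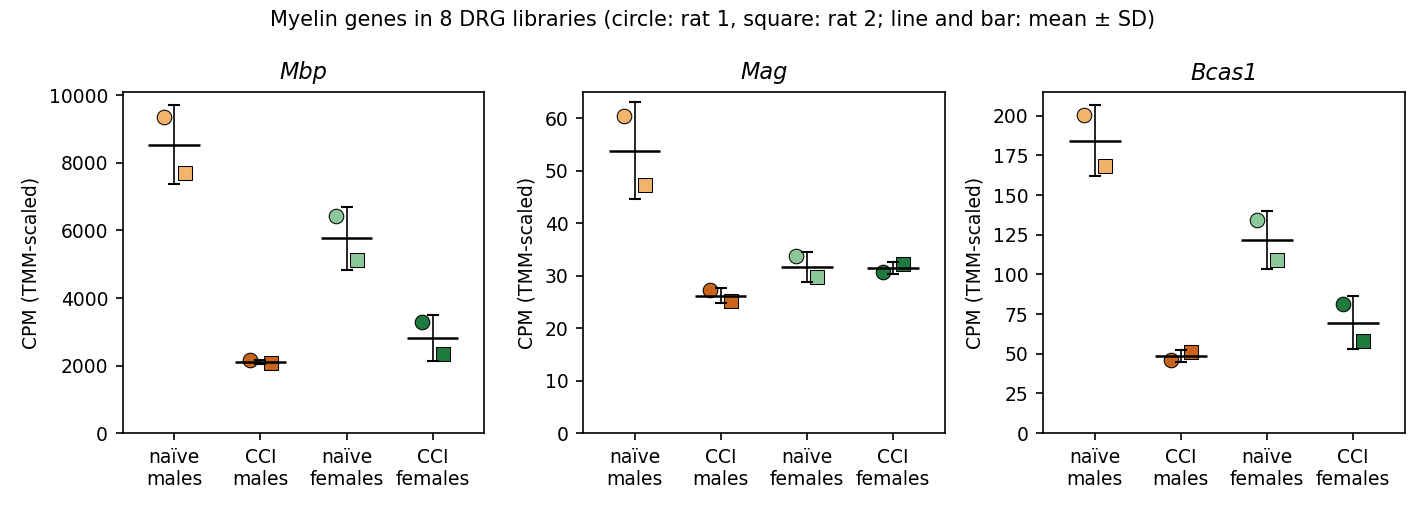
Expression of Mbp, Mag and Bcas1 in CPM (vertical axes, from 0) in the 4 groups, with 1 point per rat and the mean ± SD (n = 2 rats per group). Mbp and Bcas1 fall after CCI in both sexes, whereas Mag falls from 53.9 to 26.2 CPM in males and stays at 31.7 and 31.5 CPM in females.

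The male comparison asks how nerve injury changes these genes in male DRGs. All 3 were downregulated after CCI, while 12.5% of the 16988 genes tested were called in this direction. Genes were called by edgeR (quasi-likelihood test, p-values adjusted by Benjamini-Hochberg, 4 male libraries) where adjusted p was under 0.05 and log2FC above 0.5 in size. Mbp fell from 8537 ± 1176 to 2113 ± 66.6 CPM (mean ± SD, n = 2 rats in each group), which left 24.8% of the naïve level (log2FC -2.01, SE 0.118, adjusted p = 0.00565). Bcas1 fell from 184 ± 22.6 to 48.7 ± 3.71 CPM, or to 26.4% (log2FC -1.92, SE 0.108, adjusted p = 0.00565). Mag fell from 53.9 ± 9.23 to 26.2 ± 1.48 CPM, or to 48.6%, a smaller decrease (log2FC -1.03, SE 0.127, adjusted p = 0.00666).

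Only 266 of the genes tested had a lower log2FC than Mbp in males and 299 a lower one than Bcas1, against 1238 for Mag. Both groups were clear of each other for all 3 genes, which was true in this direction of 36.6% of the genes tested. In RNA from whole ganglia, fewer cells of a type and less RNA per cell cannot be told apart. Without the first CCI male, edgeR called 0 genes of all those tested, although 6494 had an unadjusted p under 0.05. The adjusted p was then 0.0502 for Mbp and Bcas1 and 0.0503 for Mag, with log2FCs of -2.04, -1.84 and -1.09. Without any other male all 3 calls held.

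In females, Mbp and Bcas1 were downregulated after CCI and Mag was not, where 2.0% of the genes tested were called lower. The groups did not overlap for Mbp and Bcas1, which held for 29.0% of all genes in this direction. Mbp went from 5773 ± 934 to 2818 ± 682 CPM, which is 48.8% of the naïve level (log2FC -1.04, SE 0.179, adjusted p = 0.0151). Bcas1 went from 122 ± 18.2 to 69.6 ± 16.6 CPM, or 57.2% (log2FC -0.81, SE 0.166, adjusted p = 0.0262). Mag stood at 31.7 ± 2.81 CPM in naïve and 31.5 ± 1.19 CPM in CCI females (log2FC -0.02, adjusted p = 0.920). The 95% confidence interval of the Mag log2FC ran from -0.24 to 0.20, and the log2FC of the males (-1.03) lies outside it. The same held for Mbp (interval -1.46 to -0.63, males -2.01) and Bcas1 (interval -1.20 to -0.43, males -1.92). These intervals leave out the error of the male values, so they do not test a sex difference.

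The females' calls also depended on single rats. Without the second CCI female, the adjusted p was 0.141 for Mbp (log2FC -0.81) and 0.227 for Bcas1 (log2FC -0.58). Without the first CCI female, that of Bcas1 was 0.0609 (log2FC -1.07) and Mbp remained called. Tested against an absolute log2FC of 0.5 in place of 0 (glmTreat), neither gene was called in females, with an adjusted p of 0.157 for Mbp and 0.438 for Bcas1, while all 3 genes still were in males.

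The naïve libraries also served in the comparisons above, so the values here are not independent of them. Before injury, the 3 genes had higher values in males than in females, but none was called by edgeR. The log2FC of naïve females against naïve males was -0.56 for Mbp (SE 0.147, adjusted p = 0.119), -0.76 for Mag (SE 0.142, adjusted p = 0.0961) and -0.60 for Bcas1 (SE 0.141, adjusted p = 0.108). In this comparison edgeR called 12 genes, 0.0706% of those tested, and 25.6% had an unadjusted p under 0.05, as all 3 members did (0.0120, 0.00287 and 0.00794 in the same order). The naïve sexes did not overlap in any of the 3, which held for 30.5% of all genes in this direction. DESeq2 on the same 4 libraries called all 3 lower in females, with an adjusted p of 0.00447 for Mbp, 0.000189 for Mag and 0.00187 for Bcas1, where it called 4.94% of its genes in this direction. Fitted over all 8 libraries, edgeR called Mag alone of the 3 (adjusted p = 0.0200), and Mag was also called without the second naïve male (log2FC -0.93, adjusted p = 0.0398).

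After injury the order of the sexes was the opposite. CCI females had higher values than CCI males by a log2FC of 0.42 for Mbp (SE 0.167, adjusted p = 0.266), 0.27 for Mag (SE 0.0758, adjusted p = 0.157) and 0.52 for Bcas1 (SE 0.163, adjusted p = 0.184). None of these was called by edgeR, which called 0.524% of genes higher in CCI females. All 3 had an unadjusted p under 0.05 (0.0462, 0.0121 and 0.0190), as did 18.3% of all genes, and the groups did not overlap, as in 24.7% of all genes in this direction. With DESeq2, Bcas1 was called (adjusted p = 0.0205), where 1.52% of its genes were called higher. The lower CCI female was close to the CCI males for Mbp (2336 against 2160 CPM) and Bcas1 (57.9 against 51.3 CPM), and without the first CCI female the log2FC was 0.15 and 0.26.

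Whether the response to CCI differed between the sexes was tested by the interaction of sex and CCI over all 8 libraries, at an adjusted p under 0.05. The log2FC of the interaction, the change in females minus that in males, was 1.03 for Mag (SE 0.174, adjusted p = 0.0483), 1.11 for Bcas1 (SE 0.247, adjusted p = 0.0649) and 0.98 for Mbp (SE 0.254, adjusted p = 0.0835). Thus Mag passed and the others did not, and 1.04% of the genes tested passed in this direction. The interaction equals the sex difference after injury minus that before it, and for Mag the naïve difference (-0.76) was the larger of the 2 parts. Mag lay just inside the threshold. Leaving out each of the 8 rats in turn, it passed in 1 case, without the second naïve male, and its adjusted p ranged from 0.0244 to 0.182 with a log2FC from 0.84 to 1.19. DESeq2 passed all 3 genes, with an adjusted p of 1.36e-05 for Mag, 2.16e-05 for Bcas1 and 0.0354 for Mbp, where it passed 5.81% of its genes in this direction.

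**Figure D2:**
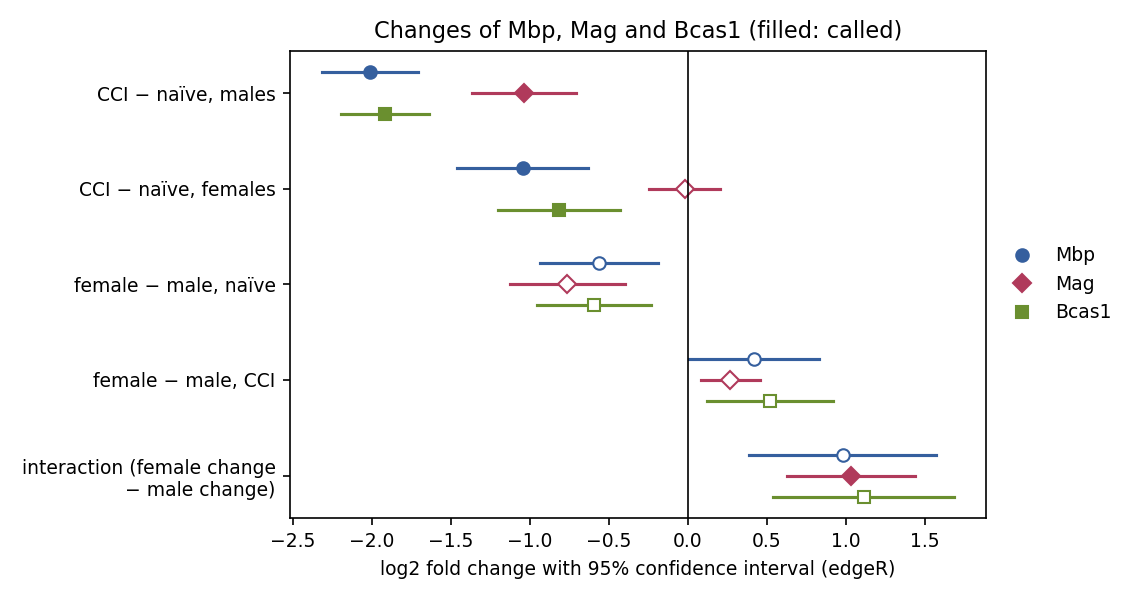
The log2FC of Mbp, Mag and Bcas1 (horizontal axis) in the 5 comparisons, with 95% confidence intervals from edgeR. Filled symbols passed the threshold. The interval of Mag in females includes 0, and in each of the 5 comparisons the intervals of Mbp and Bcas1 overlap.

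Within a library, the reads of one member relative to another do not depend on the scaling of libraries. Bcas1 and Mbp moved almost in step. There were from 20.9 to 24.8 Bcas1 reads per 1000 Mbp reads across all 8 libraries. Mag did not move in step with Mbp. Naïve males had 6.45 and 6.15 Mag reads per 1000 Mbp reads and naïve females 5.24 and 5.81. CCI males had 12.6 and 12.2, and CCI females 9.29 and 13.8. The share of Mag was therefore higher in every CCI rat than in every naïve rat of either sex. These ratios are a description and were not tested.

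**Figure D3:**
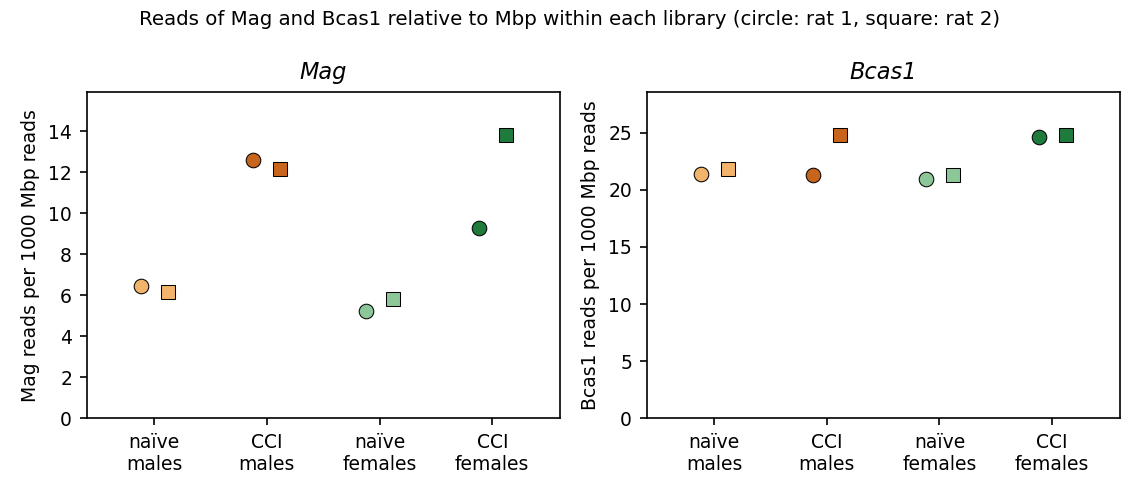
Reads of Mag and of Bcas1 per 1000 reads of Mbp in each rat (vertical axes, from 0), by group. Mag lies between 5.24 and 6.45 in the 4 naïve rats and between 9.29 and 13.8 in the 4 CCI rats, while Bcas1 stays between 20.9 and 24.8.

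Sox10, a transcription factor of Schwann cells and satellite glia, and Erbb3, their neuregulin receptor, served as lineage markers, being the 2 of 6 listed markers with a known identifier. These identifiers came from tables of genes that the study called on these libraries, so the changes of both are not independent evidence. Both fell in males, with a log2FC of -0.76 for Sox10 (adjusted p = 0.00565) and -0.67 for Erbb3 (adjusted p = 0.00697). In this direction 12.5% of all genes tested were called. In females their log2FC was -0.05 (adjusted p = 0.699) and -0.03 (adjusted p = 0.842). Their summed CPM was 448 to 510 in naïve males, 284 to 302 in CCI males, 387 in both naïve females and 376 to 384 in CCI females.

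Relative to that sum, Mbp changed by a log2 ratio of -1.30 after CCI in males and -1.02 in females, and Bcas1 by -1.21 and -0.79. Mbp was 18.4 and 17.2 times the sum in naïve males, 7.16 and 7.26 times in CCI males, 16.6 and 13.2 times in naïve females, and 8.60 and 6.22 times in CCI females. Mag changed by -0.33 in males and 0.02 in females. These ratios are a description with no test. The sum is not a count of Schwann cells, as both genes are also among the regulators of myelination below.

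Other genes of myelin were taken from lists of symbols, of which only those with an identifier in the study's tables could be followed. Those tables hold genes that the study called on these libraries, some of them as differing between the sexes. The counts below are therefore not independent evidence of a direction or of a sex difference. Of 25 genes for proteins of peripheral myelin and its Schwann cell, 5 had an identifier. In males 4 of the 5 fell and none rose, where 12.5% of all genes tested were called lower, with a median log2FC of -1.51 against -0.01 over all genes tested. Ncmap, a protein of non-compact myelin, changed most (log2FC -1.63, adjusted p = 0.00565), with 256 and 202 CPM in naïve and 76.5 and 71.0 CPM in CCI males. Prx (periaxin, log2FC -1.52) and Drp2 (its partner in the membrane complex outside the myelin sheath, log2FC -1.51) fell to a like extent, and so did Ndrg1 (log2FC -1.17), which is needed to maintain myelin. Cadm4, which joins Schwann cells to axons, had a log2FC of -0.48. In females 1 of the 5 fell and none rose, namely Ncmap (log2FC -0.78, adjusted p = 0.00832), where 2.0% of all genes were called lower. Drp2 had a log2FC of -0.49 (adjusted p = 0.0406), just under the size threshold. All 5 had a log2FC below 0 in females, and the median log2FC was -0.39 against -0.02 over all genes tested.

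Of 18 regulators of myelination, 10 had an identifier, Sox10 and Erbb3 among them. In males 9 of the 10 fell and none rose, against 12.5% of all genes called lower (median log2FC -0.66). The largest decreases were those of Nfatc4, a calcineurin-dependent transcription factor (log2FC -1.42), Nab2, a cofactor of Egr2 (log2FC -0.83), Pou3f2, a POU factor of promyelinating Schwann cells (log2FC -0.78), and Sox10. In females none of the 10 was called in either direction, with a median log2FC of -0.06, an adjusted p of at least 0.244 and log2FCs from -0.26 to 0.12. Of 24 genes of lipid synthesis 5 had an identifier. Scd2, a desaturase of fatty acids, fell in males (log2FC -0.996, adjusted p = 0.00567), and Fasn, the fatty acid synthase, rose in females (log2FC 0.51, adjusted p = 0.0106), where 3.69% of all genes were called higher. The median log2FC of the 5 was -0.35 in males and 0.03 in females.

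Of 18 genes of repair or immature Schwann cells, 5 had an identifier, and they did not move together. In males Ngfr, the low-affinity neurotrophin receptor, rose (log2FC 0.82, adjusted p = 0.00799; 9.05% of all genes were called higher), from 478 and 571 CPM to 907 and 936 CPM. The other 4 fell, with Gfap, an intermediate filament of glia, at a log2FC of -0.96, Notch1 at -0.89 and Runx2 at -0.67. None was called in females, where Ngfr had a log2FC of 0.41 (adjusted p = 0.0224), under the size threshold. Ngfr is also made by sensory neurons.

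In all, these lists held 25 genes with an identifier. In males 18 fell and 1 rose, where 12.5% of all genes were called lower and 9.05% higher. In females 1 fell and 1 rose, where 2.0% were called lower and 3.69% higher. The interaction passed in 6 of the 25, all with a positive sign, namely Prx, Drp2, Sox10, Nab2, Erbb3 and Notch1, where 1.04% of all genes passed with that sign. With DESeq2 20 of the 25 passed with a positive and 1 with a negative sign. Of its 13731 genes 5.81% passed with a positive sign and 775 genes with a negative one. All 25 had an unadjusted p under 0.05 for the interaction in edgeR, as did 4085 of the 16988 genes tested. The 25 could be followed only because the study's tables hold them, and these include genes it called different between the sexes on these libraries. The shares over all genes are therefore not a fair baseline for these counts. Between the naïve sexes 0 of the 25 were called by edgeR. DESeq2 called 6 of them lower in females, where it called 4.94% of its genes lower. In edgeR 15 of the 25 had an unadjusted p under 0.05, as did 25.6% of all genes, and the median log2FC was -0.34. Between the sexes after CCI, Drp2 (log2FC 0.89), Prx (log2FC 0.64) and Ncmap (log2FC 0.52) were higher in females. In this direction 0.524% of all genes were called.

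**Figure D4:**
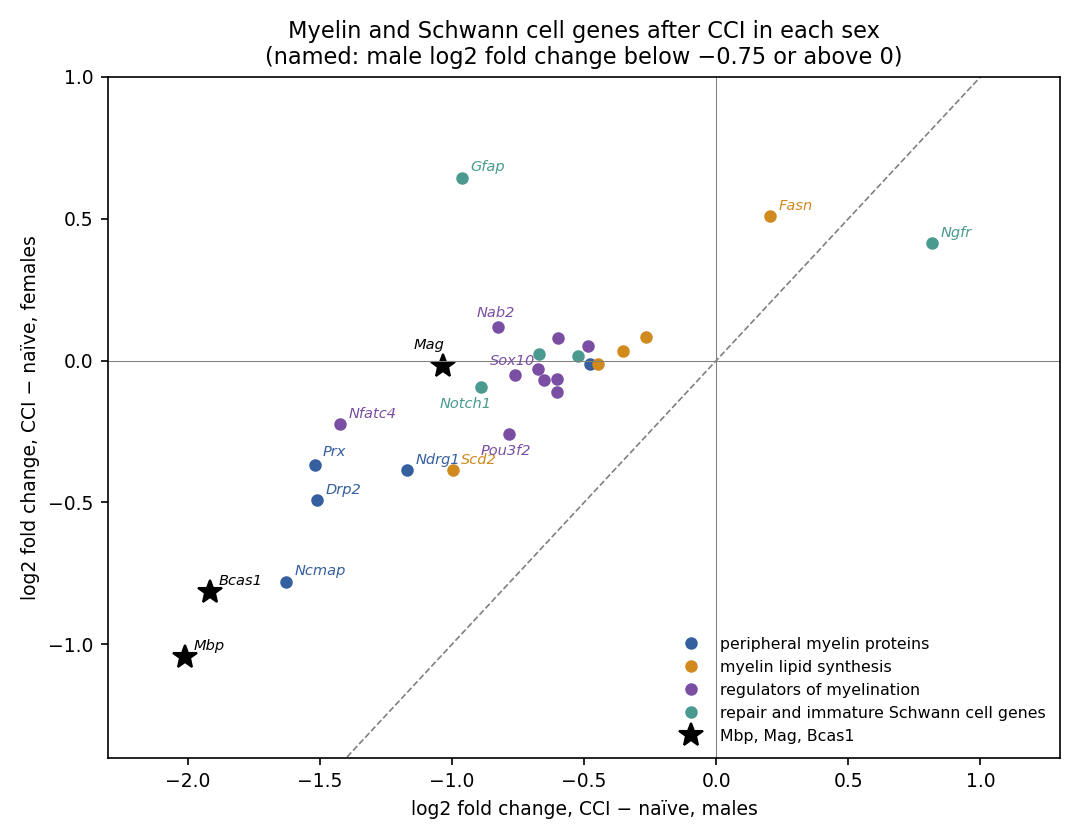
The log2FC after CCI in males (horizontal axis) and females (vertical axis) of Mbp, Mag and Bcas1 (stars) and of 25 genes of 4 lists (circles). The dashed line marks equal changes. Of all these genes Ngfr alone lies below it, and the genes nearest to Mbp and Bcas1 are Ncmap, Drp2 and Prx.

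The profiles of Mbp and Bcas1 were close to each other over the 8 libraries (Pearson's r = 0.994 of log2 CPM), and Mag was less close to them (r = 0.836 with Mbp and 0.852 with Bcas1). These values are descriptions, since the 8 libraries form 4 groups. Likeness was ranked among 13080 genes whose log2 CPM averaged 1 or more. Those most like the mean profile of the 3 genes, among genes with a symbol, were Map4k4 (r = 0.995), Wwtr1, Dnal1, Gpsm2, Appl2, Trim41, Tp53inp2, Mtss1l, Secisbp2l and Necap2 (r = 0.989). They took 10 of the first 13 ranks, and the others have no symbol here. The named genes most like Mbp alone were Aif1l (r = 0.994), Mxd4, Scd2, Bnip2 and Gpsm2. Those most like Bcas1 were Mxd4 (r = 0.995), Scd2, Aif1l, Bnip2 and Kif1c. For Mag a different set came first, with Sf3b3 (r = 0.991), Src, Tnc, Kcnj14 and Mdm1.

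**Figure D5:**
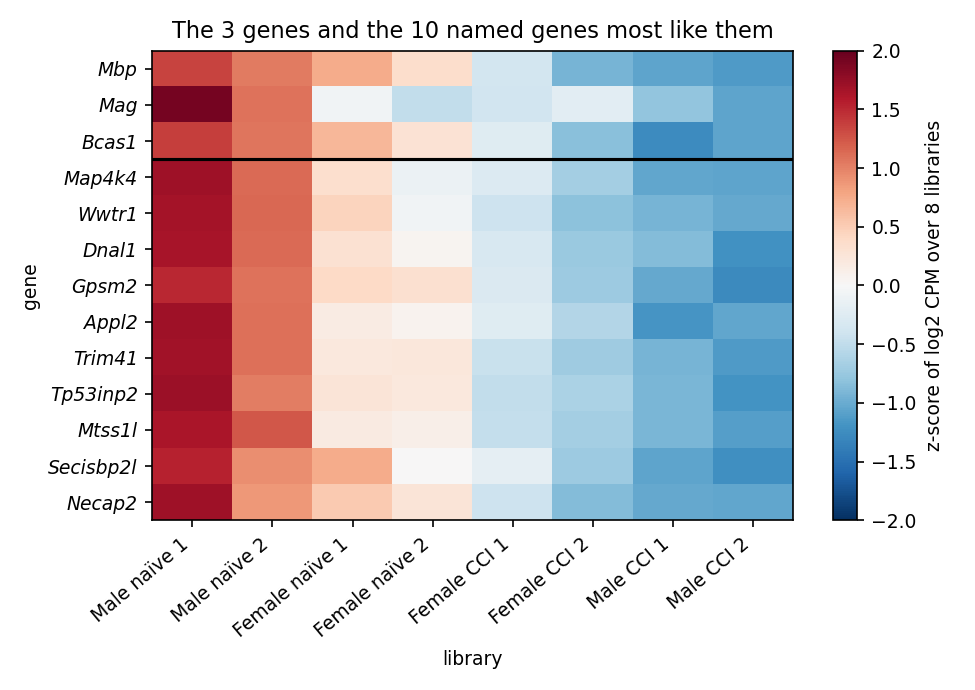
Each row is a gene and each column a rat, and the color gives the z-score of log2 CPM over the 8 libraries. The rows under the line are the 10 named genes with the highest r to the mean of Mbp, Mag and Bcas1, from 0.995 down to 0.989. Values run from high in naïve males to low in CCI males, and the naïve females are nearer to the CCI females in Mag than in Mbp or Bcas1.

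Markers of other cell types and of RNA composition also moved between the groups. Of 24 nuclear or intron-retaining transcripts, such as Leng8, Clk1, Pnisr and Rsrp1, 19 had an identifier. Their summed CPM was 3854 to 4795 in naïve males, 2020 to 2627 in naïve females, 1910 to 1939 in CCI males and 1739 to 1955 in CCI females. In males 18 of the 19 fell (median log2FC -1.10), in females 6 of 19 fell, where 12.5% and 2.0% of all genes were called lower, and between the naïve sexes edgeR called 0 of 19 (adjusted p from 0.0954 to 0.243) although all 19 had a log2FC below 0 (median -0.80). Of 14 markers of sensory neurons, 7 had an identifier. In males 6 of them rose (median log2FC 0.65), where 9.05% of all genes were called higher, and their sum went from 16824 to 19089 CPM in naïve males to 27511 to 28308 CPM in CCI males. In females it was 20603 to 21174 CPM in naïve and 21443 to 25699 CPM in CCI rats. The interaction had a positive sign in 19 of 19 nuclear transcripts (median log2FC 0.74, 1 passed) and a negative sign in 7 of 7 neuron markers (median log2FC -0.54, none passed). Of all genes 1.04% passed with a positive sign. Both sets had identifiers only through tables of genes that the study called on these libraries, so a shared sign is not independent evidence. The part of either in the results on myelin genes was not tested.

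Of 11 markers of oligodendrocytes only Hapln2, a link protein of nodes of Ranvier, had an identifier. It was 9.25 and 7.10 CPM in naïve males, 2.14 and 2.35 CPM in CCI males, 4.59 and 4.94 CPM in naïve females, and 2.69 and 1.74 CPM in CCI females, and it fell in both sexes (log2FC -1.86 and -1.11). Of 9 satellite glia markers, 2 had an identifier, Fabp7 and Hapln1. In males 1 fell and in females both, where 12.5% and 2.0% of all genes were called lower. The interaction passed for Hapln1 with a negative sign (log2FC -1.06), against the positive sign of Mag. Of the 16988 genes tested, 93 passed with a negative sign. Of 10 endothelial or fibroblast markers 3 had an identifier (Dcn, Pdgfra and Col1a1), and all 3 fell in males and none in females, against the same shares. The macrophage marker Cd163, the only one of 12 with an identifier, was called after CCI in neither sex. Between the sexes after CCI, where Drp2, Prx and Ncmap were higher in females, Cd163 (log2FC 1.77), Dcn (log2FC 0.75) and Pdgfra (log2FC 0.69) were called higher in females too. In this direction 0.524% of all genes were called. The 7 genes of red blood cells, all with an identifier, summed to 130 and 1388 CPM in the 2 naïve males, 222 to 252 CPM in CCI males, 1351 to 2029 CPM in naïve females and 168 to 212 CPM in CCI females. The naïve male with less of them had the higher Mbp, Mag and Bcas1. Of 10 skeletal muscle genes, 3 had an identifier, and all 3 rose in CCI males, where 9.05% of all genes were called higher. Their sum was 28.2 to 29.9 CPM in CCI males against at most 7.50 CPM in any other library. The markers of these cell types also had identifiers only through tables of genes that the study called on these libraries. The shares over all genes are therefore not a fair baseline for their counts. The part of these cell types in the results on Mbp, Mag and Bcas1 was not tested.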

How the data were processed

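Strand-specific poly(A) libraries were sequenced by the authors as paired ends in 2 batches, without naming the batch of each library. The authors aligned reads to rn6 with HISAT2, removed ribosomal RNA reads and deposited raw counts per Ensembl gene from featureCounts, with no normalization or batch correction. The submitters' processing notes also name CASAVA 1.8.2. The strand setting of the counting is not given in the sources used here.

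Counts were analysed in R 4.3.3 with edgeR 4.0.16, and DESeq2 1.42.0 as an alternative. Genes were kept by filterByExpr (minimum count 10, minimum total 15) and scaled with TMM. Each comparison of 2 groups used its 4 libraries, and the interaction used all 8. P-values were adjusted by Benjamini-Hochberg over all 16988 genes. SE is the log2FC divided by the square root of F. log2 CPM used a prior count of 2. P-values measure only the spread between rats of a group, with 2 rats per group. edgeR moderated the spread of each gene toward that of all genes tested, and the interaction pooled all 4 groups. Rats of a group differed by more than counting noise (mean chi-square per gene from 13.2 to 39.8). Symbols came from the study's tables (1961 identifiers). Named were the 3 genes, up to 4 members of each list in each comparison (largest absolute log2FC among those called, or among those tested), and the genes most like the members. The members and lists were chosen with earlier results of these data known, and genes named outside this rule, such as Cadm4 and the examples of nuclear transcripts, were added after their values were seen. Alternatives were other normalizations, filters, thresholds and fits, a block for the replicate number, and fits lacking 1 library. Promoter windows are from RefSeq (GRCr8) and were matched by symbol.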

Additional observations from a re-analysis of the deposited data

Results flagged for a closer look

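The interaction of sex and CCI, by edgeR's quasi-likelihood test over 8 libraries, passed in Mag and in 6 of the 25 listed genes of myelin and Schwann cells. It passed with a positive sign in 1.04% of all genes. Those 25 had an identifier only through tables of genes that the study called on these libraries, some as differing between the sexes. The 1.04% is therefore not a fair baseline for them, and the count is not independent evidence of a sex difference. The log2FC of the interaction was 1.03 for Mag, 1.17 for Prx, 1.03 for Drp2, 0.72 for Sox10, 0.96 for Nab2, 0.66 for Erbb3 and 0.81 for Notch1, with an adjusted p from 0.0412 to 0.0483. A positive sign means that the log2FC after CCI was lower in males than in females. Mbp (0.98) and Bcas1 (1.11) had a like log2FC of the interaction and did not pass. The interaction was also positive in 19 of 19 nuclear or intron-retaining transcripts (median log2FC 0.74) and negative in 7 of 7 neuron markers (median log2FC -0.54), and their part in the result was not tested. The identifiers of these genes came from the same tables. Leaving out single rats, between 0 and 563 of all genes passed, against 270 with every rat, and where 0 passed between 2728 and 3887 had an unadjusted p under 0.05.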

How the results depend on the processing

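Size factors of DESeq2 and upper-quartile scaling changed no call or direction of Mbp, Mag and Bcas1. In males, 3663 genes were called, against 6447 with no log2FC threshold, 968 with glmTreat and 0 to 3722 when single rats were left out (0 without the first CCI male, 1883 without the second, 2296 without the first naïve male). Over the same omissions the log2FC ran from -2.14 to -1.87 for Mbp, -1.20 to -0.86 for Mag and -2.04 to -1.79 for Bcas1. In females, 967 genes were called, against 1560 with no threshold, 161 with glmTreat and 84 to 1836 with single rats left out (143 without the first CCI female, 84 without the second, 1836 without the second naïve female). With glmTreat the calls of Mbp (-1.04) and Bcas1 (-0.81) were lost. With single rats left out, log2FC was -1.31 to -0.81 for Mbp, -1.07 to -0.58 for Bcas1 and -0.10 to 0.070 for Mag, whose sign turned without the first naïve female (0.070) or the first CCI female (0.03).

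Between naïve sexes 12 genes were called, against 1014 with DESeq2, 906 with edgeR over all 8 libraries, 130 with no filter, 1 with at least 10 counts in every library and 6 to 327 with single rats left out. DESeq2 called Mbp (-0.56), Mag (-0.76) and Bcas1 (-0.59), and edgeR over all libraries called Mag (-0.76). With single rats left out, log2FC was -0.93 to -0.58 for Mag. Between CCI sexes 180 genes were called, against 375 with DESeq2, 284 with no filter, 59 with glmTreat and 32 to 656 with single rats left out, and DESeq2 called Bcas1 (0.52). The interaction passed 270 genes, against 1573 with DESeq2, 1032 with no filter, 532 with at least 10 counts in every library and 0 to 563 with single rats left out. Mbp and Bcas1 passed with DESeq2 (0.97 and 1.10) and with no filter (0.96 and 1.10), and Bcas1 with the count minimum (1.12). Mag ran from 0.84 to 1.19 with single rats left out. Relative to Sox10 alone, Mbp changed by -1.24 in males. The cause of these shifts was not tested.

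The replicate numbers are shared by the groups but not stated to pair rats. Differences between the 2 rats correlated across genes at 0.731 between naïve and CCI males, and from -0.0200 to 0.142 between all other pairs of groups. The count columns of the first naïve male and the first CCI male alone carry an added letter a, whose meaning is not given. The main fit in males has no term for it. With the replicate block, 4478 genes were called in males and 1180 in females, 6 between naïve sexes and 68 between CCI sexes. Mbp, Mag and Bcas1 stayed called in males. The interaction then passed for Mbp (0.96, adjusted p = 0.0391) and Bcas1 (1.09, adjusted p = 0.0475) as well as for Mag (adjusted p = 0.0391), by edgeR. With 2 rats per group, the spread within a group, and not the depth, limits these comparisons.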

Other observations

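In naïve males and in naïve females, the rat numbered 1 had the higher Mbp, Mag and Bcas1 (for Mbp 9369 against 7705 CPM and 6433 against 5113 CPM). In CCI males the rat numbered 1 had more Mbp (2160 against 2066 CPM) and Mag (27.2 against 25.2 CPM) but less Bcas1 (46.1 against 51.3 CPM). In CCI females the rat numbered 1 had more Mbp (3299.7 against 2336 CPM) and Bcas1 (81.3 against 57.9 CPM) but less Mag (30.6 against 32.3 CPM). Prx, Drp2, Ncmap and Ndrg1 were also higher in the first rat of each group, for example Prx with 2119 against 1711 CPM in naïve males and 1109 against 959 CPM in CCI females. Cadm4, the remaining gene followed in that list, was lower in the first CCI male (174 against 204 CPM). Gfap, which fell in males, was 70.1 and 37.4 CPM in the 2 CCI females and 39.5 and 28.8 CPM in the naïve females, so that its spread between CCI females was wide (log2FC 0.65, adjusted p = 0.165 by edgeR).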
